A study of Mus musculus with 8 samples.

Results

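The genes described here write, read and remove methyl groups on the cytosines of DNA. They include the maintenance methyltransferase Dnmt1 with its recruiter Uhrf1, and Uhrf2, a paralogue of Uhrf1. They also include the de novo methyltransferases Dnmt3a and Dnmt3b with their cofactor Dnmt3l, the methylcytosine dioxygenases Tet1, Tet2 and Tet3, and the glycosylase Tdg. Their messenger RNAs were measured in round spermatids, the haploid cells that follow meiosis, purified from control mice and from BrdtΔBD1 mutant mice. The members were all probe sets that the annotation of the array assigns to exactly 1 of these 10 genes. This gave 22 of 45037 tested probe sets, which represent 9 of the 18193 genes on the array. Tdg is not among them, because all 3 probe sets that read it are also assigned to the pseudogenes Tdg-ps and Tdg-ps2.

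The Brdt gene encodes a testis-specific protein that binds acetylated histones, and the mutant allele lacks the first of its bromodomains. All animals were 129 Sv/Ev adults of 2 to 4 months. Each of 4 mutant and 4 control arrays received RNA of round spermatids from 7 animals, separated on a gradient of bovine serum albumin. The labels do not give the zygosity of the mutant animals or the genotype of the controls beyond the word control. The labels do not state that the 4 pools of a group were prepared on different days or from different litters, so the p-values measure the spread between these pools. All 15 round spermatid marker genes that were looked up were measured, their mean log2 intensity was 13.56 to 13.85 on mutant and 13.55 to 13.77 on control arrays, and 0 of them changed. Fewer cells of a type in a pool and less RNA per cell cannot be told apart in such samples.

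DNMT1 copies the methylation pattern to the new strand after DNA replication, and UHRF1 brings it to hemimethylated sites. DNMT3A and DNMT3B set new methylation, and DNMT3L, which has no catalytic activity of its own, stimulates both and is needed for methylation of retrotransposons and paternal imprints in the precursors of spermatogonia before birth. TET enzymes oxidise methylcytosine to hydroxymethylcytosine and then to further forms, and TDG can excise these further forms. Round spermatids no longer replicate their DNA, and most of the sperm methylation pattern is in place long before this stage.

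Intensities are on the log2 scale, so that a difference of 1 is a doubling, and differences are mutant minus control throughout. The words rose and fell are used only where the p-value, adjusted by the method of Benjamini and Hochberg over all probe sets or over all genes in limma, was under 0.05. At gene level each gene was represented by its probe set with the highest mean over the 8 arrays. A probe set is called near the floor when both group means were under 4, which held for 13 of the 22 members and 66.3% of all probe sets. Differences at the floor are compressed by the background correction. Levels of different probe sets are not comparable with each other, and only differences between arrays are read from them.

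Dnmt3l fell and Dnmt1 rose in the mutant pools of purified round spermatids. These were the 2 members that changed among the 9 measured genes (limma, adjusted over all genes). Dnmt3l was 3.49-fold lower and Dnmt1 2.17-fold higher. Among all genes 3.71% passed the same threshold, 1.86% as rises and 1.85% as falls. With the replicate number as a block, 11.5% of all genes passed (6.6% rises and 4.94% falls) and the member genes called were again Dnmt1 and Dnmt3l. Over probe sets 0 members rose and 1 fell, that of Dnmt3l, where 1.42% of all probe sets passed (0.717% rises and 0.702% falls). With the block 2 probe sets rose, both of Dnmt1, and 1 fell, against 6.43% of all probe sets (3.92% rises and 2.5% falls). At an unadjusted p under 0.05, 4 member probe sets were higher, against 8.43% of all, and 2 were lower, against 6.69%. All mutant arrays lay above all control arrays for 4 of the 22 probe sets (4.73% of all probe sets) and below them for 2 (4.75%). The median log2 difference was 0.12 over the 22 probe sets and -0.03 over all probe sets.

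**Figure D1:**
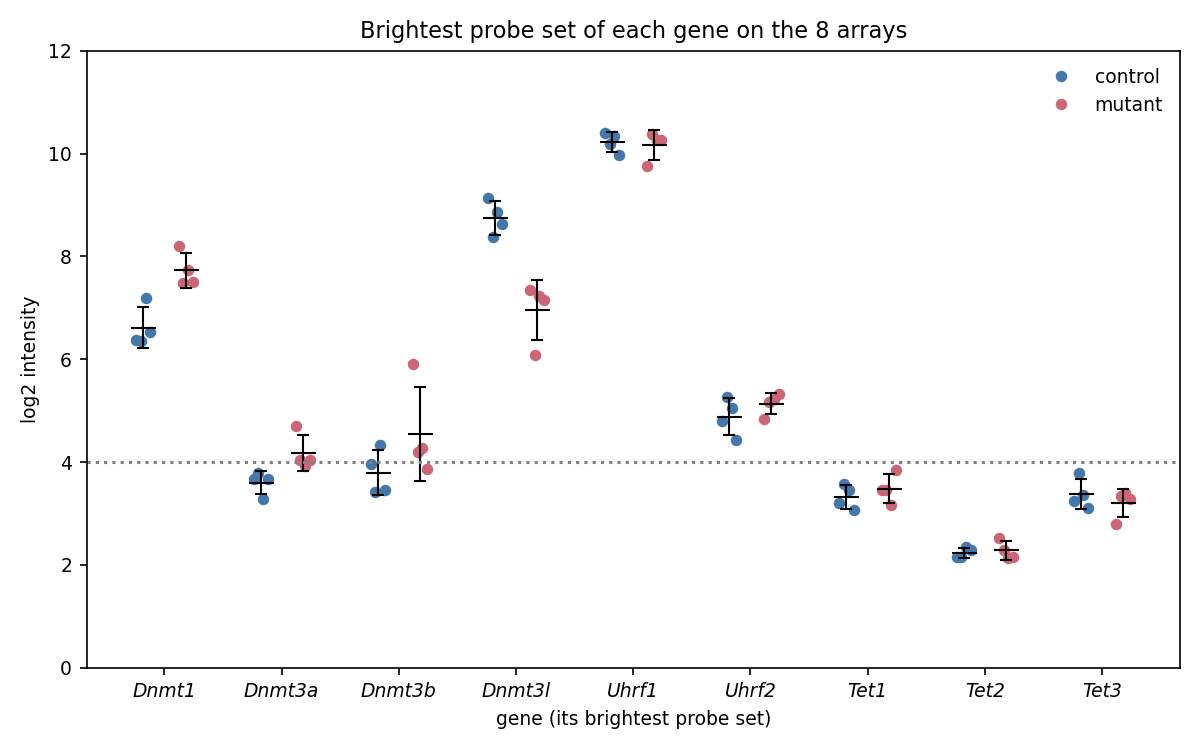
Log2 intensity of the brightest probe set of each of the 9 measured genes on the 4 control (blue) and 4 mutant (red) arrays; points are arrays, black bars are the mean and SD, and the dotted line marks 4, the value used for the floor. The mutant arrays of Dnmt3l lie at 6.08 to 7.34, all below the control arrays at 8.37 to 9.14, those of Dnmt1 lie above all control arrays, and the Tet genes stay under the line.

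Dnmt3l, the cofactor without catalytic activity, was read by 1 probe set, 1425035_s_at. The gene lies on chromosome 10. RefSeq lists 3 starts for it on the assembly GRCm38.p6, and male germ cells are known to use different starts of this gene, with a shortened transcript from an internal start in adult testis. Where the probe set lies relative to these starts is not given in the sources used here, so the array values are not assigned to any of them. The 250 bases before each start are shown because Dnmt3l was the member that passed at both levels of testing. They are given 5′ to 3′ from RefSeq, with every CG dinucleotide, the substrate of the methyltransferases, in capitals.
Dnmt3l, the most upstream start, chr10:78042037-78042286, plus strand: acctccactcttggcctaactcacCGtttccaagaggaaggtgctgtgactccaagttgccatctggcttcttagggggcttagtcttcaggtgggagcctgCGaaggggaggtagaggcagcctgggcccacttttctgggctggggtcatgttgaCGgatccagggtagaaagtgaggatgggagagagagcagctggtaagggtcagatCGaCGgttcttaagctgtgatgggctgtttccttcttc
Dnmt3l, the middle start, chr10:78049592-78049841, plus strand: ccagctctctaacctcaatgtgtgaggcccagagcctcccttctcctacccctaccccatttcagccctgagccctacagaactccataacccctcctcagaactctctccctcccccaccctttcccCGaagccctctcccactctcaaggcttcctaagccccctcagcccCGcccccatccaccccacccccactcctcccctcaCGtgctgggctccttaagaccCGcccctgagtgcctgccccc
Dnmt3l, the most downstream start, chr10:78055085-78055334, plus strand: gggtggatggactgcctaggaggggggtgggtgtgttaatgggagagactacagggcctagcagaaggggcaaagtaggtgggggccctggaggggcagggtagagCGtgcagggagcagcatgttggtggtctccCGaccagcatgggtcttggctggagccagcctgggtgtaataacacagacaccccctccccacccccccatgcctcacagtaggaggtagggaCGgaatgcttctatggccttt

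These windows held 5, 4 and 3 CG dinucleotides, from the most upstream to the most downstream. The median over all 32851 RefSeq windows of the same length was 6, and 92.1% held at least 1. Fewer CG than in these 3 windows were found in 44.4%, 37.8% and 29.0% of all windows. The 3 corresponding windows of Dnmt1, which likewise has several first exons, held 2, 7 and 26. CG is its own reverse complement, so a count on 1 strand covers both. The counts describe the letters only, since no methylation was measured.

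Dnmt3l read 9.14, 8.37, 8.87 and 8.63 on control arrays 1 to 4 and 7.34, 6.08, 7.24 and 7.15 on mutant arrays 1 to 4. The groups did not overlap, and mutant array 2 was the lowest of all. The means were 8.75 ± 0.33 in control and 6.95 ± 0.59 in mutant arrays (SD, n = 4 each). The log2 difference was -1.80 (SE 0.29, adjusted p = 0.0166 over genes and 0.0262 over probe sets, limma). Arrays of the same replicate number differed by -1.80, -2.29, -1.63 and -1.48, so the value was lower in the mutant array of all 4 pairs. With the replicate number as a block the SE was 0.15 and the adjusted p 0.00438 over genes.

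The call on Dnmt3l depended on single arrays. Without control array 1, 3 or 4 the adjusted p over genes was 0.0516, 0.0522 and 0.0508, with log2 differences of -1.67, -1.76 and -1.84. Over probe sets the values without these arrays were 0.0778, 0.0763 and 0.0733, and 0.0667 without mutant array 3. Without control arrays 1 and 3 together it was -1.55 (SE 0.37, adjusted p = 0.168 over genes). Over 16 alternatives the log2 difference ran from -1.93 to -1.51 and the adjusted p over genes from 0.00438 to 0.168, and it passed in 12 of them.

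Dnmt1, the maintenance methyltransferase on chromosome 9, had 3 probe sets. Of these 1422946_a_at was the brightest and read 6.38, 6.36, 7.19 and 6.54 on control arrays 1 to 4 and 8.21, 7.49, 7.73 and 7.50 on mutant arrays 1 to 4. The mutant arrays were all above the control arrays, of which array 3 was the highest, and mutant array 1 was the highest of all. The means were 6.62 ± 0.39 in control and 7.74 ± 0.34 in mutant arrays (SD, n = 4 each), a log2 difference of 1.12 (SE 0.23, adjusted p = 0.0369 over genes, limma). Over probe sets the adjusted p was 0.0548, which missed the threshold, and 0.029 with the replicate block.

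The other probe sets of Dnmt1 were higher as well, with values that did not pass without the block. Probe set 1435122_x_at read 4.42, 3.03, 4.61 and 3.98 on control arrays 1 to 4 and 5.74, 5.05, 5.43 and 4.78 on mutant arrays 1 to 4. Again the groups did not overlap, and the log2 difference was 1.24 (SE 0.35, adjusted p = 0.131 over probe sets, and 0.0251 with the replicate block). Probe set 1447877_x_at had means near the floor, 2.32 in control and 2.89 in mutant arrays, and a log2 difference of 0.57 (SE 0.15, adjusted p = 0.111, and 0.0722 with the block). In the brightest probe set the pairs of arrays differed by 1.83, 1.13, 0.54 and 0.96, so all 4 pairs had the mutant array higher. With the mean of all 3 probe sets the log2 difference of Dnmt1 was 0.98 (adjusted p = 0.0492 over genes). A test for unequal differences between the probe sets of Dnmt1 with a mean of at least 4 gave an adjusted p of 1 (diffSplice), where 0.906% of all such genes passed.

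The rise of Dnmt1 passed in 2 of the 8 fits that left out 1 array, those without control array 3 and without mutant array 2 (adjusted p = 0.0242 and 0.0288 over genes). Without control arrays 1, 2 and 4 in turn the adjusted p was 0.0989, 0.0862 and 0.105, and without mutant arrays 1, 3 and 4 in turn it was 0.0647, 0.1 and 0.0543. Without both control arrays 1 and 3 the log2 difference was 1.28 (SE 0.23, adjusted p = 0.1). Over 16 alternatives the difference lay between 0.96 and 1.31 and the adjusted p over genes between 0.0121 and 0.105.

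**Figure D2:**
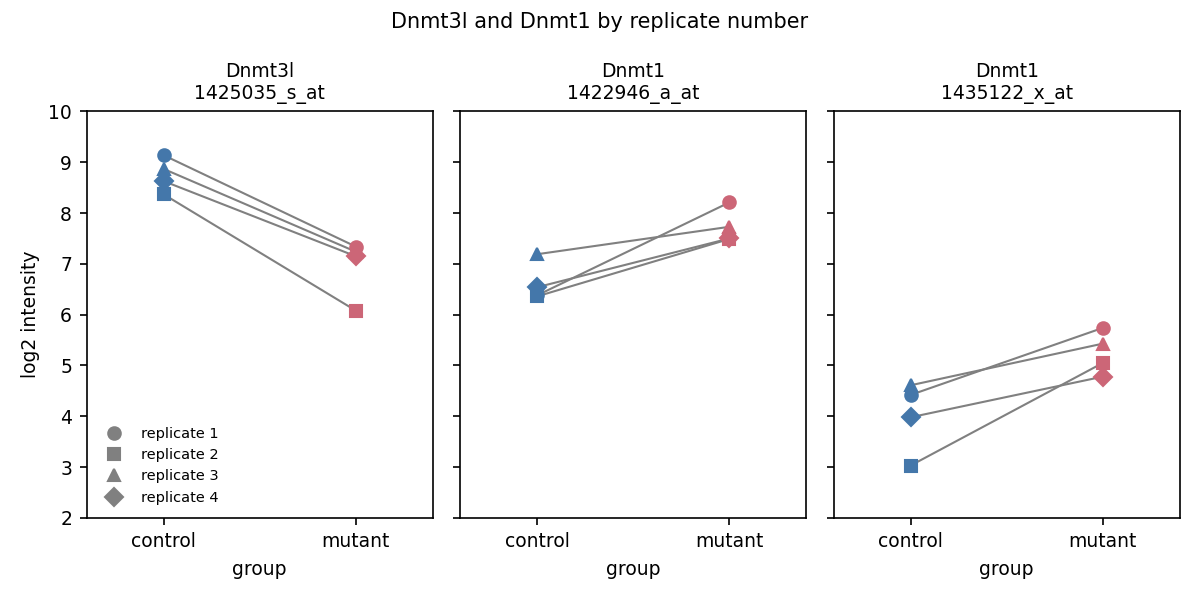
Log2 intensity of Dnmt3l and of the 2 probe sets of Dnmt1 that are not near the floor, with lines joining the control (blue) and mutant (red) array of the same replicate number. All 4 lines fall for Dnmt3l, and all 4 rise for each probe set of Dnmt1.

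Other cell types and RNA quality varied between these arrays too. Of 19 measured Sertoli cell markers 6 rose and 0 fell (10 and 0 with the replicate block), and their summed linear intensity was 6387 to 24130 on mutant and 1952 to 5345 on control arrays. Of 18 spermatogonia markers 1 rose, Etv5, and 0 fell (7 and 0 with the block), and the sum was 1841 to 4996 against 935 to 1453. The mean log2 value of the spermatogonia list was 5.85, 5.13, 5.42 and 5.14 on mutant arrays 1 to 4. On control arrays it was 4.40 to 4.78, so mutant array 1 was the highest here as it was for Dnmt1. Mutant array 1 was also the highest for the lists of Leydig cells (4.90), peritubular, vascular and blood cells (3.89) and round spermatids (13.85). The Sertoli cell list was highest on mutant array 3 (7.18). The spermatocyte list was highest on mutant array 2 (10.04, with 10.03 on mutant array 1). Of 9 Leydig cell markers 2 rose and of 20 peritubular, vascular and blood cell markers 1 rose, with the same counts under the block. The sums of the peritubular, vascular and blood cell list were 222 to 586 on mutant and 205 to 242 on control arrays. Those of the Leydig cell list were 1960 to 2922 and 1517 to 2895. Their largest term was Fdx1, with means of 10.97 in mutant and 10.92 in control arrays. The mean log2 value of the Leydig cell list was 4.62 to 4.90 on mutant and 3.78 to 4.19 on control arrays, without overlap. Of 19 spermatocyte markers 0 rose or fell without the block, while 3 rose and 1 fell with it (59375 to 75930 against 57120 to 69882). Near the floor were 7 of the 19 Sertoli cell markers (Amh, Sox9 and Gata4 among them), 6 of the 18 of spermatogonia (with Zbtb16 and Gfra1), 6 of the 9 of Leydig cells (with Star and Cyp11a1), 14 of the 20 of peritubular, vascular and blood cells and 0 of the 19 of spermatocytes. Other markers were not near the floor. Defb19 of Sertoli cells had means of 11.41 in mutant and 8.41 in control arrays (adjusted p = 0.0359 over genes, limma). Those of Cldn11, also of Sertoli cells, were 5.89 and 4.17 (0.0294), so its control mean lay close to the floor of 4. Means of Dazl of spermatogonia were 10.36 and 8.79 (0.0797 without and 0.0199 with the block) and those of Stra8 7.61 and 6.08 (0.146 and 0.0151). The part of these cells in the values of Dnmt1 and Dnmt3l was not tested. The gap between the 3′ and 5′ Gapdh probe sets, a measure of RNA integrity, was 1.68 and 2.05 on control arrays 1 and 3 and 0.33 to 0.94 on the other arrays. The mean log2 value of the 18S ribosomal RNA probe sets was 11.2 and 8.87 on these control arrays and 8.11 on mutant array 1, against 3.65 to 5.51 on the other arrays. On control arrays 1 and 3 Dnmt3l was highest, at 9.14 and 8.87, and mutant array 1 was the highest for Dnmt1. The brightest probe set of Dnmt1 read 6.38 and 7.19 on control arrays 1 and 3, and 6.36 and 6.54 on control arrays 2 and 4. The part of RNA quality in these values was not tested.

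The de novo methyltransferases did not pass. Dnmt3a was read by 5 probe sets, of which 1423066_at was not near the floor. It read 3.67, 3.78, 3.28 and 3.67 on control arrays 1 to 4 and 4.70, 4.05, 3.93 and 4.04 on mutant arrays 1 to 4. The mutant arrays were all higher, and mutant array 1 stood above the other mutant arrays. It had the most 18S signal of the mutant arrays, 8.11. Control arrays 1 and 3 had more, 11.2 and 8.87, and read 3.67 and 3.28. The part of RNA quality in the Dnmt3a values was not tested. The log2 difference was 0.58 (SE 0.19, adjusted p = 0.134 over genes; 0.0573 with the replicate block), with a 95% interval of 0.16 to 1.0. The other probe sets of Dnmt3a had differences of 0.08 to 0.28 at group means of 2.17 to 3.6, with overlapping arrays.

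Dnmt3b, the second de novo enzyme, had 1 probe set that was not near the floor, 1449052_a_at. It read 3.96, 3.41, 4.33 and 3.46 on control arrays 1 to 4 and 5.90, 4.19, 4.27 and 3.86 on mutant arrays 1 to 4. The groups overlapped, and mutant array 1 was again the highest. The log2 difference was 0.76 (SE 0.43, adjusted p = 0.367 over genes), and 0.31 without mutant array 1. Its 95% interval ran from -0.21 to 1.73. Its other probe set, 1418351_a_at, lay near the floor at 2.81 to 2.97 on mutant and 2.67 to 2.79 on control arrays, without overlap and with a log2 difference of 0.16 (adjusted p = 0.442).

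Uhrf1, the protein that recognises hemimethylated DNA, was read well above the floor in both groups. Probe set 1415810_at read 10.40, 10.18, 10.34 and 9.97 on control arrays 1 to 4 and 9.75, 10.38, 10.27 and 10.27 on mutant arrays 1 to 4. The groups overlapped over most of their range, with a log2 difference of -0.05 (SE 0.16, adjusted p = 0.896 over genes) and a 95% interval of -0.42 to 0.31. The sign of the Uhrf1 value turned under 4 of 16 alternatives.

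The second probe set of Uhrf1, 1415811_at, varied far more between arrays of a group. It read 7.56, 8.25, 5.95 and 8.37 on control arrays 1 to 4 and 6.35, 8.02, 7.04 and 7.77 on mutant arrays 1 to 4. The lowest array was control 3, the one with the largest Gapdh gap. The next lowest was mutant 1, where that gap was 0.60 and the 18S value 8.11. Control array 1, with a gap of 1.68 and an 18S value of 11.2, read 7.56, above mutant array 3 at 7.04. The part of RNA quality in this probe set was not tested. The log2 difference was -0.24 (SE 0.56, adjusted p = 0.893 over probe sets), with a 95% interval of -1.51 to 1.04. Without control arrays 1 and 3 together it was -1.02 (SE 0.45, adjusted p = 0.454), and without mutant array 1 it was 0.078. A test for unequal group differences between the probe sets of Uhrf1 gave an adjusted p of 1 (diffSplice).

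Uhrf2, its paralogue, had 2 probe sets with overlapping arrays that were not called near the floor. Probe set 1454920_at read 4.80, 5.26, 5.05 and 4.43 on control arrays 1 to 4 and 4.84, 5.17, 5.22 and 5.33 on mutant arrays 1 to 4. The log2 difference was 0.26 (SE 0.19, adjusted p = 0.512 over genes). The other probe set, 1447217_at, had a difference of -0.11 (SE 0.11, adjusted p = 0.689 over probe sets). Its group means were 3.89 in mutant and 4.00 in control arrays, so it lay at the cut of 4.

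The dioxygenases Tet1, Tet2 and Tet3, which oxidise methylcytosine, were near the floor in all 7 of their probe sets. Tet1 was read by 4 probe sets with group means of 2.00 to 3.48, Tet2 by 2 with group means of 2.06 to 2.29, and Tet3 by 1 at 3.21 in mutant and 3.38 in control arrays. None of the 7 passed in limma. At an unadjusted p under 0.05 there was 1, probe set 1419896_at of Tet1, with a log2 difference of -0.30 (SE 0.11, adjusted p = 0.228). It read 2.55, 2.44, 2.54 and 2.62 on control arrays 1 to 4 and 2.00, 2.25, 2.40 and 2.29 on mutant arrays 1 to 4. The brightest probe set of Tet1, 1419897_at, differed the other way by 0.15 (SE 0.17, adjusted p = 0.691 over genes), and with the mean of its 4 probe sets Tet1 differed by -0.11. The brightest probe set of Tet2 differed by 0.05 (SE 0.11) and that of Tet3 by -0.17 (SE 0.19), with adjusted p of 0.868 and 0.675 over genes. Near the floor a difference in intensity can understate a difference in RNA. Whether signals at this level come from Tet RNA or from background was not tested.

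**Figure D3:**
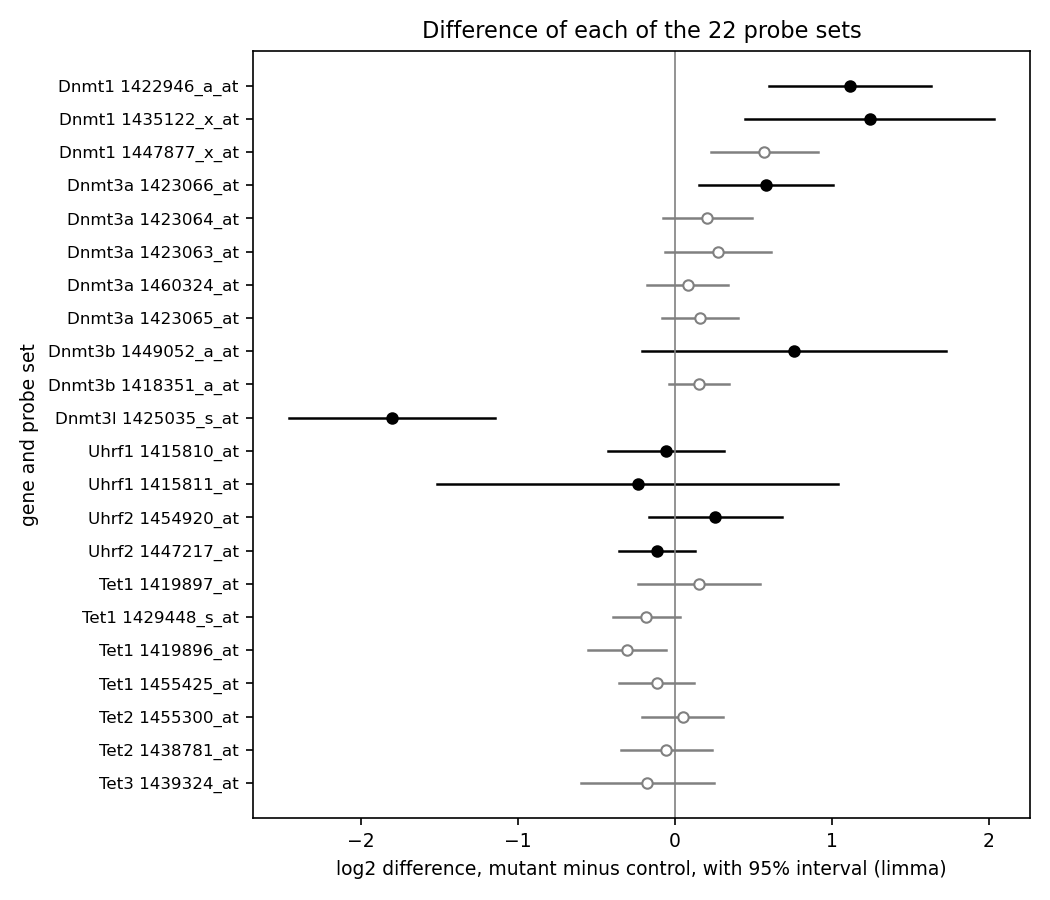
Log2 difference, mutant minus control, of all 22 probe sets with its 95% interval from limma. Filled points are probe sets not near the floor and open points those near it. The 3 probe sets of Dnmt1 lie above 0 and Dnmt3l lies at -1.80, while the intervals of Uhrf1 and Uhrf2 include 0.

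The probe sets shared by Tdg and its pseudogenes are given without naming Tdg as their source. They differed by 0.21, 0.44 and 0.29 on the log2 scale, with adjusted p of 0.796, 0.688 and 0.526 over probe sets (limma) and overlapping arrays. Their group means lay between 3.24 and 5.03.

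Other genes of the pathway were looked up in 3 lists with 94 genes, of which 82 were measured. None of the 82 passed without the replicate block (limma, adjusted over all genes), where 3.71% of all genes did, and unadjusted p-values under 0.05 went with a higher value in 20 of them and a lower one in 5. Of all genes 20.2% had such a p, 11% higher and 9.16% lower. With the block 7 rose and 3 fell, 12.2% of the 82, where 11.5% of all genes were called (6.6% as rises and 4.94% as falls), so the share was near that of all genes. The median log2 difference was 0.09 over the 82 genes and -0.02 over all genes, and 30 of the 82 were near the floor. The genes named below were chosen after their values were seen, as those that passed with the block, and are given as values of single genes.

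Among readers and partners of DNA methylation, 35 of 37 genes were measured, with a median log2 difference of 0.19. By the unadjusted p 9 were higher and 2 lower, and with the block 3 rose and 1 fell, 11.4% of the list against 11.5% of all genes. Hells, a helicase that helps the methyltransferases to reach packed chromatin, read 8.24, 7.87, 8.56 and 7.99 on control arrays 1 to 4 and 10.10, 9.0, 9.44 and 8.67 on mutant arrays 1 to 4. The groups did not overlap, and mutant array 1 was the highest, as for Dnmt1. The log2 difference of Hells was 1.13 (SE 0.30 without and 0.20 with the block, adjusted p = 0.0734 without and 0.0218 with it). The 16 alternatives gave adjusted p of 0.0218 to 0.207. Averaged over its probe sets the difference of Hells was 0.29. Rb1, the retinoblastoma protein, differed by 0.78 (adjusted p = 0.148 without and 0.0386 with the block) and Gadd45g, a stress-induced protein linked to demethylation, by 0.58 near the floor (0.158 and 0.04).

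Zfp57, a zinc finger protein that protects imprinted methylation, was the one lower gene of that list with the block. It read 5.91, 5.07, 7.11 and 5.15 on control arrays 1 to 4 and 3.59, 3.69, 5.67 and 4.97 on mutant arrays 1 to 4. The groups overlapped, since control arrays spread over more than the difference, and each mutant array was below the control array of its number. The log2 difference was -1.33 (adjusted p = 0.239 without and 0.0465 with the block). The 16 alternatives gave adjusted p of 0.0465 to 0.683, and the difference was -0.63 both with array weights and without control arrays 1 and 3 together.

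In base excision repair, the pathway that replaces oxidised methylcytosine, 22 of 27 genes were measured with a median log2 difference of 0.01. By the unadjusted p 4 were higher and 2 lower. With the block 3 rose and 1 fell, 18.2% of the list against 11.5% of all genes, and this difference in shares was not tested. These were the uracil glycosylase Ung (1.30, adjusted p = 0.22 without and 0.0429 with the block), the abasic site nuclease Apex1 (0.62; 0.19 and 0.0285), the small modifier Sumo3 (0.46; 0.125 and 0.034) and the oxoguanine glycosylase Ogg1 (-0.57; 0.45 and 0.0219). Mutant array 1 read 7.79 for Ung and the other mutant arrays 5.18 to 6.33, against 4.41 to 5.29 on control arrays.

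Of genes for the methyl donor and the cosubstrates of TET enzymes, 25 of 30 were measured, with a median log2 difference of 0.23. By the unadjusted p 7 were higher and 1 lower, and 1 rose and 1 fell with the block, 8% of the list, below the 11.5% of all genes. Idh1, the isocitrate dehydrogenase that makes 2-oxoglutarate for dioxygenases in the cytosol, differed by 0.81 (adjusted p = 0.106 without and 0.0202 with the block). The aspartate transaminase Got1, which links 2-oxoglutarate to glutamate, differed by -0.89 (adjusted p = 0.289 without and 0.0202 with the block). Both were ordered alike in all 4 pairs while the groups overlapped.

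**Figure D4:**
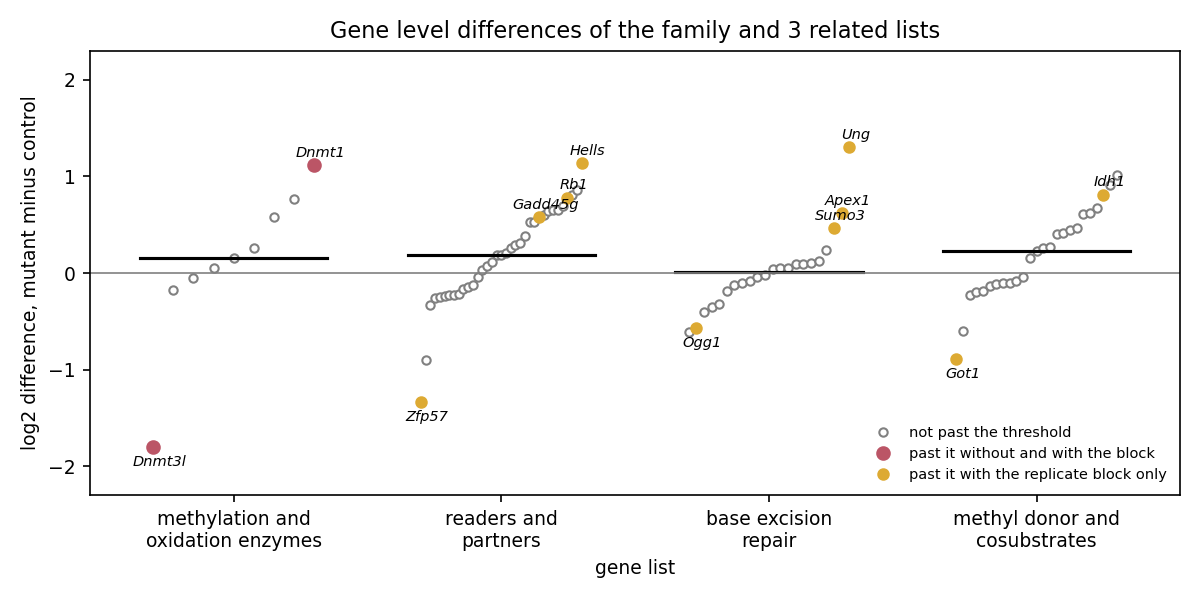
Log2 difference, mutant minus control, at gene level for the 9 measured enzymes and the 82 measured genes of the 3 lists; each point is a gene, black lines are medians, and colour marks whether the adjusted p was under 0.05 without and with the replicate block or only with it. Dnmt1 at 1.12 and Dnmt3l at -1.80 are the genes past the threshold without the block, and 10 genes of the lists pass only with it.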

How the data were processed

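RNA of purified round spermatids was measured on Affymetrix arrays, 4 mutant and 4 control, grouped and numbered by sample title. The authors deposited log2 intensities per probe set. The submitters' processing notes name GCRMA and limma without versions or roles, and the array medians of the values, 3.10 to 3.14, fit that scale. Work started from these values and no scanner files. GCRMA compresses weak signals, which shrinks differences of dim probe sets. Of 45101 probe sets, 64 controls were left out. The platform annotation gives 34945 probe sets 1 gene, 932 several and 9160 no name. Symbols were updated through the RefSeq gene table of GRCm38.p6 (34741 found). All 10 members matched promoter windows.

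The group comparison used limma 3.58.1 under R 4.3.3 (group as the only term, both directions) over all probe sets, and over genes by the probe set with the highest mean. Probe sets of a gene were compared with diffSplice. Scripts were tested on simulated data. Of 100 probe sets given a log2 change of 1, 23 passed the threshold, and of 100 given a change of 2, 75 passed. A member that did not pass is therefore not shown to be unchanged. The number of arrays limits the precision. Same-numbered arrays deviated together from their group means (r = 0.388 to 0.648, against -0.454 to 0.143 for other pairs, over probe sets above 4 on average), so numbers were taken to pair the arrays. The pairing comes from this check and the titles, and the fit with the replicate number as a block is given where it changes a call.

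Alternatives were a minimum mean of 4, median centring, quantile normalization, array weights, another variance prior, the mean of all probe sets, and leaving out arrays. The members and gene lists were chosen with earlier results of these data known. The naming rule took all members and the list genes past the gene threshold without the block, of which there were 0. The 10 list genes named in the text fall outside it and were chosen after their values were seen, as those that passed with the block.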

Additional observations from a re-analysis of the deposited data

Results flagged for a closer look

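In 44 groups of 4 arrays, 1 array stood apart from the other 3 in 2 cases, by the ratio of its gap to the range of the group (Dixon's test at the 95% level). Chance flags about 1 in 20 such groups. Mutant array 2 read 6.08 for Dnmt3l, where the other mutant arrays read 7.15 to 7.34 (ratio 0.849). Without it the log2 difference of Dnmt3l was -1.51 (SE 0.19, adjusted p = 0.00478 over genes, limma, in a range over 16 alternatives of 0.00438 to 0.168). Mutant array 1 read 4.70 for probe set 1423066_at of Dnmt3a, where the other mutant arrays read 3.93 to 4.05 (ratio 0.844).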

How the results depend on the processing

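Dnmt1 and Dnmt3l kept their direction under all 16 alternatives at gene level. Without 1 array in turn, counts of member genes were 0 to 1 risen and 0 to 1 fallen, those of member probe sets 0 to 1 and 0 to 1, and those of pathway genes 0 to 2 risen and 0 fallen. All genes called numbered 199 to 1131 (675 with all arrays) and all probe sets 189 to 1323 (639). The highest came without mutant array 2 and the lowest without mutant array 3. Without control arrays 1 and 3 together, 0 member genes rose, 0 fell, 0 member probe sets fell, 1 pathway gene fell, and 68 genes and 35 probe sets were called in all. With the replicate block 2 member probe sets and 7 pathway genes rose, 3 pathway genes fell, and 2100 genes and 2894 probe sets were called. With array weights 1 member probe set and 6 pathway genes rose, 1 pathway gene fell, and 1655 genes and 1339 probe sets were called. Quantile normalization gave 2 and 1 pathway genes, with 1040 genes and 993 probe sets. The minimum mean of 4 gave 1 risen member probe set and 1 risen pathway gene, where fewer genes were tested. The other variance prior and the mean of all probe sets gave 2 risen pathway genes each. Where arrays were left out fewer samples were compared, and for the other settings the cause was not tested.

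Among members, signs turned for Uhrf1, Tet2 and Tet1. Uhrf1 probe set 1415810_at became 0.025 with array weights (0.048 at gene level) and 0.095 without control arrays 1 and 3 together. Without 1 array in turn it ran from -0.14 to 0.085 at both levels, and 1415811_at, at -0.24 with all arrays, from -0.76 to 0.078. Without control arrays 1 and 3 together 1415811_at was -1.02. Tet2 probe set 1455300_at became -0.031 with array weights (-0.052 at gene level) and ran from -0.034 to 0.097 without 1 array, while 1438781_at ran from -0.11 to 0.038. With the mean of all probe sets Tet2 was -0.0032 and Tet1 -0.11. The other variance prior could not be run in diffSplice, in which 0 member genes passed under any alternative run. Signal over background limits the Tet genes, all of whose probe sets were near the floor.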
